A study of Rattus norvegicus with 12 samples.

Results

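The genes of the oligodendrocyte lineage and of myelin were followed through 6 corticosterone conditions in rat hypothalamus. They were chosen by name from a list of 33 precursor, newly forming and myelinating oligodendrocyte genes. The rule used names and no measured value, but the list was drawn up with earlier results of these data known. Of these, 32 matched a gene identifier exactly, out of 17310 identifiers, and all 32 were among the 12856 genes abundant enough to test. The remaining name, Trf, matched no identifier. RefSeq lists Trf as a synonym of Tf, the iron carrier transferrin, and also of Trh, so Tf is given beside the members and is not counted among them.

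RNA was sequenced from dissected hypothalamic tissue containing the paraventricular nucleus (PVH) of male wild-type Wistar rats at 12 weeks of age. Each of the 6 groups had 2 libraries. The sham group had a sham adrenalectomy. The high Cort group had 12 days of high corticosterone (Cort), the main glucocorticoid of the rat. The ADX group had been adrenalectomised for 7 days, which removes the adrenal source of the hormone, and the supplemented ADX group combined adrenalectomy with corticosterone supplementation. The 1 h acute and 3 h acute groups were taken 1 h and 3 h after acute corticosterone, and the labels do not say whether these rats kept their adrenal glands. Nor do they say whether the libraries of a group came from separate animals, so each p-value speaks to the spread between libraries alone, and that spread may be technical.

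Oligodendrocytes arise from precursor cells that persist and divide in the adult brain. A precursor that leaves the cell cycle passes through a short premyelinating state with its own transient genes, and then either dies or matures into a cell that wraps axons in compact myelin. Myelin is rich in galactolipids and in a small set of structural proteins, so its genes rank among the abundant transcripts of brain tissue. Glucocorticoid receptors are present in cells of this lineage. The tissue is a mixture of cell types, and fewer cells of a type cannot be told apart from less RNA per cell.

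The libraries held 17674159 to 36249006 gene-assigned fragments, the fewest in 1 h acute replicate 2. Levels are in CPM, the fragments of a gene scaled to a common library size by the trimmed mean of M-values, and differences are log2 fold changes with standard errors (SE) from a single edgeR quasi-likelihood fit of all 12 libraries. A gene was called at a Benjamini-Hochberg adjusted p under 0.05 over all 12856 genes. The condition codes in the deposited tables repeat, and 2 processing runs were inferred from them. Sham, high Cort and ADX fell in the first and the other 3 groups in the second. The sample titles name no run, and whether it marks a sequencing or library batch is not known. Supplemented ADX against ADX, 1 h acute against sham and 3 h acute against sham therefore set groups of different runs against each other, and in these the run cannot be told apart from the treatment. A summed level of 12 thalamus markers ran from 591 CPM in 1 h acute replicate 2 to 1996 CPM in sham replicate 2, and the high Cort pair stood at 1931 and 1945 CPM while the ADX pair stood at 1117 and 1273 CPM. The summed level of 8 Schwann cell markers, genes of the myelinating cells of peripheral nerve, was 31.4 to 42.2 CPM in every library.

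At the level of the whole list, 1 of the 32 genes was called in high Cort against sham, where 0.871% of all genes tested were called. In ADX against sham edgeR called 0 of 32, beside 0.233% of all genes. Here 4 members had an unadjusted p under 0.05 in edgeR, beside 12.8% of all genes at that level. DESeq2 called 2 members, for which the edgeR shares are not a background. High Cort against ADX gave 3 called members, and 5.77% of all genes were called there. Called members numbered 2 in 1 h acute against sham, where 12.8% of all genes passed.

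In the other 5 comparisons edgeR called no member. For 3 h acute against sham, edgeR called 7.98% of all genes. DESeq2 called 2 members in that comparison, for which the edgeR share is not a background. An unadjusted p under 0.05 was found there for 11 members and 25% of all genes. The 11 became 1 when the mean level of the thalamus markers entered the fit as a covariate. The share of all genes in that fit was not counted, so the drop is not a result about the members. The members' median log2 difference did not shrink with that covariate, at -0.15 before and -0.16 after. For supplemented ADX against ADX the called share of all genes was 0.0311%, and at the unadjusted level 2 members stood beside 4.05% of all genes. The called share was 0.0467% for 1 h acute against supplemented ADX, where 3 members stood beside 14.7% at the unadjusted level. It was 0.00778% for 3 h acute against supplemented ADX, with 1 member beside 12.5%, and 0.0233% for 3 h acute against 1 h acute, with 2 members beside 10.6%. DESeq2 called 0 members in these last 4 comparisons.

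**Figure D1:**
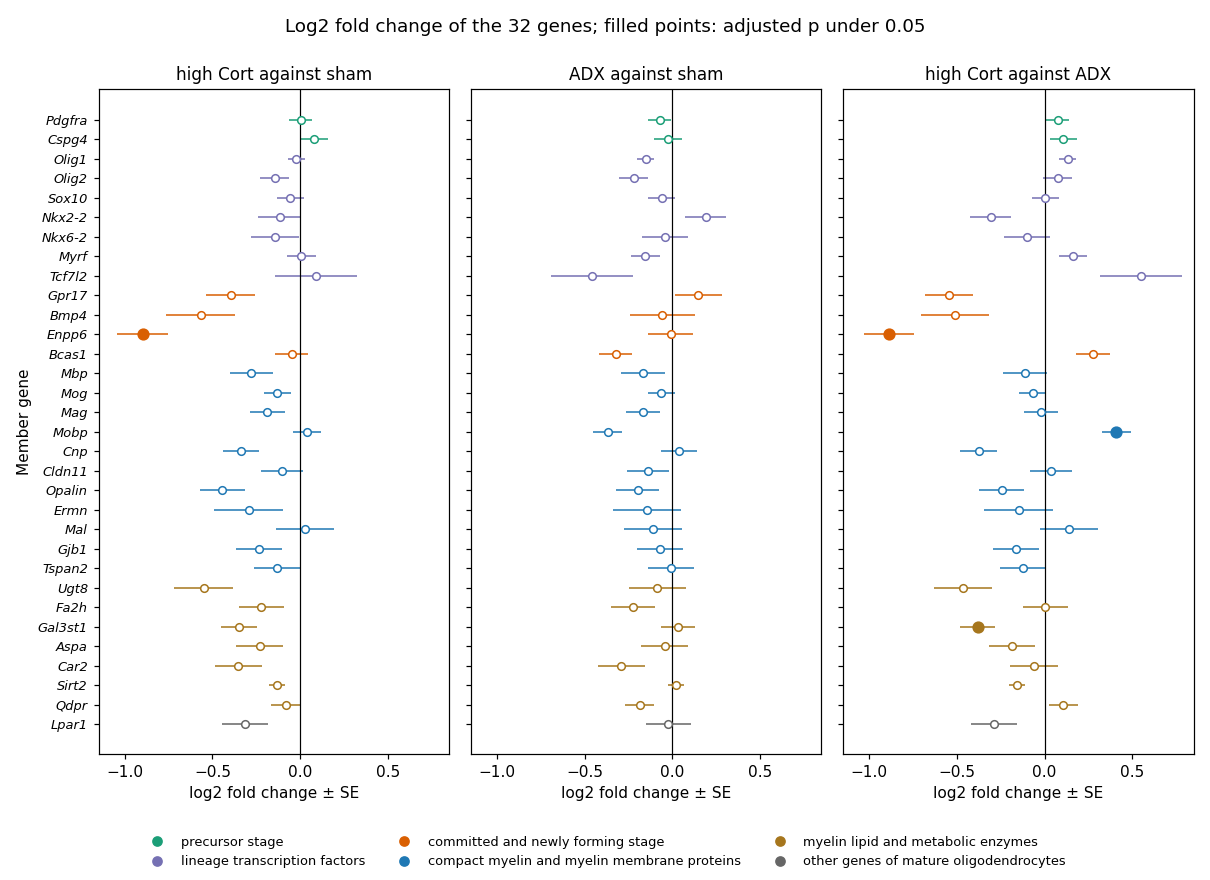
Log2 fold change with SE (horizontal axis) of the 32 genes (vertical axis, coloured by stage) in 3 comparisons of 2 libraries against 2. Filled points passed an adjusted p under 0.05; they are Enpp6 in high Cort against sham, and Enpp6, Gal3st1 and Mobp in high Cort against ADX.

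The precursor genes Pdgfra and Cspg4 were not called in any comparison. Pdgfra encodes the receptor for the growth factor PDGF-A that keeps precursors dividing. Sham gave 166 and 176 CPM, high Cort likewise 166 and 176 CPM, a log2 difference of 0.00 ± 0.07 (SE, n = 2 per group, edgeR adjusted p = 0.998). Cspg4 encodes the proteoglycan NG2 and is also made by pericytes. It stood at 69.4 and 71.0 CPM in sham and at 75.7 and 73.1 CPM in high Cort, a log2 difference of 0.08 ± 0.08 (edgeR adjusted p = 0.879). The high Cort libraries lay above the sham libraries for Cspg4 and overlapped them for Pdgfra. The summed level of 9 pericyte and smooth muscle markers came to 309 and 323 CPM under high Cort, while sham had 352 and 346 CPM, and its part in the Cspg4 values was not tested.

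The 7 transcription factors cover the lineage from specification (Olig1, Olig2) through Sox10, Nkx2-2 and Nkx6-2 to Myrf, which switches on myelin genes, and Tcf7l2, a Wnt pathway factor of newly differentiating cells. In high Cort against sham none was called, 5 of 7 had a negative log2 difference and their median was -0.06. With the thalamus score in the fit 6 of 7 were negative, Tcf7l2 having turned sign at about 0, and without sham replicate 2 the median was -0.13. The factors without a call in any comparison were Olig1, Olig2, Sox10, Nkx2-2, Nkx6-2 and Myrf. Olig2 had the smallest p of the 7 there. Its libraries read 40.7 and 38.9 CPM in sham and 38.1 and 34.0 CPM in high Cort, with no overlap, and the log2 difference was -0.15 ± 0.08 (edgeR adjusted p = 0.713). Set against ADX, the smallest p in high Cort was that of Olig1, whose high Cort pair (118 and 116 CPM) lay above its ADX pair (105 and 108 CPM). That difference was 0.13 ± 0.05 on the log2 scale and was not called (edgeR adjusted p = 0.122).

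Tcf7l2 was the factor with the widest range. It read 257 and 327 CPM in sham, 306 and 316 CPM in high Cort, 204 and 222 CPM in ADX, and 219.5 and 232 CPM in supplemented ADX. The acute groups lay lower, with 179.6 and 104 CPM at 1 h and 176 and 186 CPM at 3 h. Tcf7l2 fell by 1.03 ± 0.24 on the log2 scale in 1 h acute against sham (edgeR adjusted p = 0.0413, n = 2 per group), and both 1 h libraries lay below both sham libraries. Tcf7l2 is also strongly expressed by thalamic neurons. The mean log2 CPM of 12 thalamus markers stood at 5.86 and 6.47 for sham but 5.43 and 4.67 for 1 h acute, and 8 of the 12 markers were called lower in the same comparison. With that score as a covariate in the fit, the Tcf7l2 difference was -0.15 (edgeR adjusted p = 0.996). The score did not overlap between the groups compared, so this fit cannot tell it apart from the treatment. The Tcf7l2 call was lost in 6 of 11 alternatives. Besides that covariate they were leaving out sham replicate 1 (log2 difference -1.18, adjusted p = 0.0557) or sham replicate 2 (-0.83, 0.214), no filter on low counts (-1.02, 0.0504), the replicate block (-1.03, 0.0714) and the fit of the 4 samples compared (-1.03, 0.208).

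**Figure D2:**
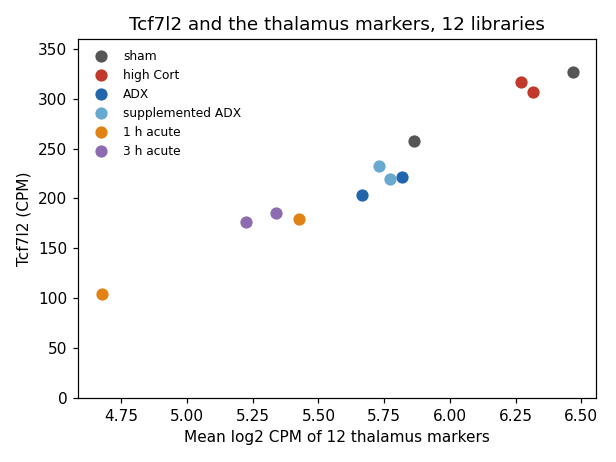
Tcf7l2 level in CPM (vertical axis) against the mean log2 CPM of 12 thalamus markers (horizontal axis), 1 point per library, coloured by group. The lowest point on both axes is 1 h acute replicate 2 (104 CPM at a score of 4.67) and the highest is sham replicate 2 (327 CPM at 6.47).

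The committed and newly forming stage held the member with the largest called change under high corticosterone. Its 4 genes all had a negative log2 difference in high Cort against sham, with a median of -0.48 where the median of all genes tested was 0.01. Without high Cort replicate 1 the median was -0.25 and 3 of 4 were negative, Bcas1 being the exception, and without high Cort replicate 2 it was -0.81. Enpp6 encodes a choline-releasing phosphodiesterase and marks oligodendrocytes that have just begun to differentiate. Its promoter is shown with those of Gal3st1 and Mobp because these were the 3 members called when high Cort was set against ADX. The sequences are RefSeq's in build GRCr8, from 250 bases before to 50 after the gene start, and 24 of the 32 members had one. Capitals mark matches to ACAAAG or ACAATG (the core of Sox factor sites), to CAGCTG (an E-box, the site class of Olig factors) and to AGAACA (a core of glucocorticoid receptor sites), each searched on both strands. Enpp6 lies on the minus strand at chr16:52026679-52026978, Gal3st1 on the plus strand at chr14:83094135-83094434 and Mobp on the plus strand at chr8:128746982-128747281.
Enpp6: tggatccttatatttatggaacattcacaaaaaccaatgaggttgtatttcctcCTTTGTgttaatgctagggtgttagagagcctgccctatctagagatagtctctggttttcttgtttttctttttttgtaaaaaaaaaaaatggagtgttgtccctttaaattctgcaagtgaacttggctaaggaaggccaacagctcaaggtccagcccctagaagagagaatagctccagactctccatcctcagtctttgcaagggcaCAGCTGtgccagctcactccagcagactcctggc
Gal3st1: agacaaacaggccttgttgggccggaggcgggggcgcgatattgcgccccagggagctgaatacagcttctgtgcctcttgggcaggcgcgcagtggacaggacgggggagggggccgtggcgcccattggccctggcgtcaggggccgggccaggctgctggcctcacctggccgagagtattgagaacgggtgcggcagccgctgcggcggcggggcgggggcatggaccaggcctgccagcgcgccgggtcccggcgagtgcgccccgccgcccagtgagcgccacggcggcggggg
Mobp: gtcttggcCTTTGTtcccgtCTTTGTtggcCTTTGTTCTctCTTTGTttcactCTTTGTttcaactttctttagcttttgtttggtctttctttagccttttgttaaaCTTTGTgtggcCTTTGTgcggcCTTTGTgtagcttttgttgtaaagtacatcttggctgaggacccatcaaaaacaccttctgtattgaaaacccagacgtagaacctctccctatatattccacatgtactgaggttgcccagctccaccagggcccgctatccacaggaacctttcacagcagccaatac
The window of Enpp6 held 1 Sox match and 1 E-box, and the Gal3st1 window held none of the 3 motifs. The Mobp window held 8 Sox matches and 1 match to AGAACA, which overlaps a Sox match. Sox matches occurred in 29.1% of all 33469 promoter windows and in 8 of the 25 windows of members (1 member has more than one window). E-boxes occurred in 15.1% and in 6 of 25, and AGAACA in 20.7% and in 3 of 25. A match is a run of letters and was not tested as a site.

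Enpp6 read 9.06 and 7.17 CPM in sham, 3.72 and 4.89 CPM in high Cort, and 7.91 and 8.18 CPM in ADX. These levels rest on 231 and 196 fragments for sham, 92 and 147 for high Cort, and 265 and 257 for ADX. The groups of the inferred second run gave 7.14 and 7.95 CPM in supplemented ADX, 6.79 and 6.60 CPM at 1 h, and 6.12 and 6.63 CPM at 3 h. Both high Cort libraries lay below all 10 others. Enpp6 fell by 0.90 ± 0.15 on the log2 scale in high Cort against sham (edgeR adjusted p = 0.00664) and by 0.89 ± 0.14 against ADX (edgeR adjusted p = 0.00202, n = 2 per group). The first call was lost without sham replicate 1 (log2 difference -0.73, adjusted p = 0.0628) and without high Cort replicate 1 (-0.73, adjusted p = 0.124), as well as in the fit of the 4 samples compared (adjusted p = 0.0704) and with limma on log2 FPKM (adjusted p from 0.122 to 0.224). The limma fits differed from the main fit also in holding only the libraries of the first inferred run. With the thalamus score as a covariate in edgeR the Enpp6 differences were -0.87 against sham (edgeR adjusted p = 0.00409) and -0.77 against ADX (edgeR adjusted p = 0.0269).

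Gpr17 encodes a receptor of premyelinating cells that is switched off as they mature. Its level was 38.9 and 41.9 CPM in sham, 25.8 and 35.3 CPM in high Cort, and 45.8 and 43.7 CPM in ADX, and the other 6 libraries read 36.3 to 45.5 CPM. Both high Cort libraries again lay below all others, and they differed more from each other than the sham or the ADX pair did. The 3 h acute pair was also far apart, at 45.5 and 36.3 CPM. For high Cort the log2 difference was -0.40 ± 0.14 against sham (edgeR adjusted p = 0.425) and -0.54 ± 0.14 against ADX (edgeR adjusted p = 0.0538), so neither was called. Leaving out high Cort replicate 2 gave -0.65 and a call against sham (edgeR adjusted p = 0.019), while leaving out high Cort replicate 1 gave -0.20. DESeq2 called Gpr17 against ADX.

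Bmp4 encodes a secreted signal that newly committed cells make. It read 6.001 and 6.44 CPM in sham, 3.20 and 5.09 CPM in high Cort, and 6.39 and 5.57 CPM in ADX. Supplemented ADX replicate 1, at 5.01 CPM, and 3 h acute replicate 2, at 3.87 CPM, lay between the high Cort libraries. The log2 difference was -0.57 ± 0.20 against sham (edgeR adjusted p = 0.336) and -0.51 ± 0.19 against ADX (edgeR adjusted p = 0.144). Without high Cort replicate 1 these were -0.30 and -0.25, and without high Cort replicate 2 they were -0.97 and -0.92, the last with an edgeR adjusted p of 0.0343.

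Bcas1, a gene of early myelinating cells, followed another order. Its libraries read 143 and 133 CPM in sham, 126 and 140.5 CPM in high Cort, and 109.7 and 110.5 CPM in ADX. The sham and high Cort libraries overlapped, and ADX lay below both. In 1 h acute against sham Bcas1 fell by 0.35 ± 0.10 on the log2 scale (edgeR adjusted p = 0.0423), with 119.6 and 95.6 CPM in the 1 h libraries. With the thalamus score as a covariate that difference was -0.17 (edgeR adjusted p = 0.996), and here too score and treatment cannot be told apart. The Bcas1 call was lost in 7 of 11 alternatives. Besides that covariate they were leaving out sham replicate 1 (log2 difference -0.29, adjusted p = 0.158), sham replicate 2 (-0.39, 0.13) or 1 h acute replicate 2 (-0.20, 0.179), no filter on low counts (-0.34, 0.0603), the replicate block (-0.35, 0.0675) and the fit of the 4 samples compared (-0.35, 0.168).

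**Figure D3:**
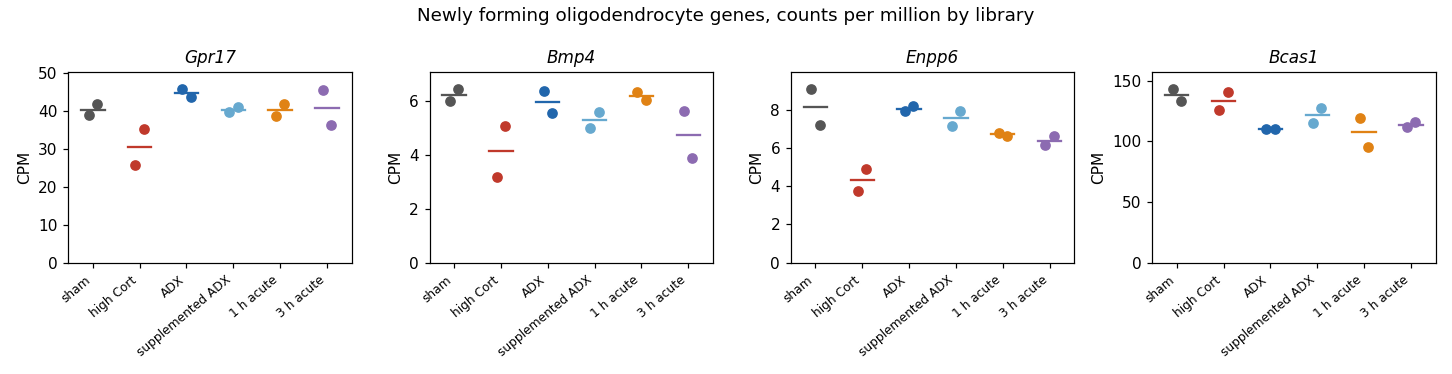
Level in CPM (vertical axis, from 0) of the 4 newly forming genes by group, with a point per library and a line at the mean of 2. The high Cort points are the lowest pair for Gpr17 (25.8 and 35.3 CPM) and Enpp6 (3.72 and 4.89 CPM), while Bcas1 in high Cort (126 and 140.5 CPM) overlaps sham.

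The genes of mature cells were 11 myelin and membrane proteins, 7 lipid and metabolic enzymes and Lpar1, a lysophosphatidic acid receptor. Of these 19, none was called in high Cort against sham. The log2 difference was negative in 17 of 19, with a median of -0.23. Leaving out sham replicate 1 brought the median to -0.10 and leaving out sham replicate 2 to -0.38. Of the high Cort libraries, it was -0.12 without the first and -0.39 without the second, and 15 to 19 of 19 were negative in these fits. Mbp, which encodes the protein that holds the cytoplasmic faces of myelin together, read 3062 and 2588 CPM in sham and 2159.6 and 2499.5 CPM in high Cort. The groups did not overlap, and the log2 difference was -0.28 ± 0.12 (edgeR adjusted p = 0.627). Leaving out sham replicate 1 gave -0.16, and leaving out high Cort replicate 1 gave -0.18. Opalin, a membrane glycoprotein of myelinating cells, had the smallest p of the 11 proteins there, with 112 and 98.5 CPM in sham against 69.6 and 84.5 CPM in high Cort. Its difference was -0.44 ± 0.13 (edgeR adjusted p = 0.268), which DESeq2 called.

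Cnp encodes a phosphodiesterase of noncompact myelin. It read 519 and 468 CPM in sham, 358 and 423 CPM in high Cort, and 506 and 509 CPM in ADX. The log2 difference was -0.34 ± 0.10 against sham (edgeR adjusted p = 0.324) and -0.38 ± 0.10 against ADX (edgeR adjusted p = 0.0766). Neither passed in edgeR, while DESeq2 called Cnp in both. Against ADX the fit of the 4 samples compared, limma on filtered FPKM and leaving out high Cort replicate 2 also called it, at adjusted p from 0.0453 to 0.0474.

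Mobp, a basic protein of compact myelin, was the member that rose in high Cort against ADX. It read 409.5 and 364 CPM in sham, 389.7 and 405 CPM in high Cort, and 312 and 286 CPM in ADX. High Cort overlapped sham and lay above ADX. The log2 difference was 0.41 ± 0.08 against ADX (edgeR adjusted p = 0.0162) and 0.04 ± 0.08 against sham (edgeR adjusted p = 0.958). ADX against sham gave -0.37 ± 0.08 (edgeR adjusted p = 0.11), which edgeR did not call and DESeq2 did. The call against ADX was lost without high Cort replicate 1 (adjusted p = 0.0959), high Cort replicate 2 (0.122) or ADX replicate 2 (0.134), with limma on unfiltered FPKM (0.0586), and when the thalamus score entered the fit (log2 difference 0.43, adjusted p = 0.13).

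Among the enzymes, Ugt8 and Gal3st1 act in sequence: Ugt8 makes galactosylceramide, and Gal3st1 adds the sulfate that turns it into sulfatide. Ugt8 read 149 and 113 CPM in sham, 80.5 and 97.8 CPM in high Cort, and 124 and 122 CPM in ADX. Gal3st1 read 10.1 and 9.77 CPM in sham, 7.24 and 8.29 CPM in high Cort, and 9.85 and 10.5 CPM in ADX. For both genes the high Cort libraries were the lowest of the 12. Gal3st1 fell by 0.38 ± 0.10 on the log2 scale in high Cort against ADX (edgeR adjusted p = 0.0377). Against sham its difference was -0.35 ± 0.10 (edgeR adjusted p = 0.196). The call was lost without high Cort replicate 1 (adjusted p = 0.256) or either ADX library (0.112 and 0.185), with DESeq2 (0.137), with the replicate block (0.0512), with limma on FPKM (0.0615 to 0.0955) and when the thalamus score entered the fit (log2 difference -0.44, adjusted p = 0.117). Ugt8 differed by -0.55 ± 0.17 against sham (edgeR adjusted p = 0.359) and by -0.47 ± 0.17 against ADX (edgeR adjusted p = 0.173). The first was -0.35 without sham replicate 1, and the second was called in the fit of the 4 samples compared (edgeR adjusted p = 0.0167).

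Sirt2, a deacetylase abundant in myelin, had the smallest SE of these enzymes. It read 121 and 117 CPM in sham, 104 and 112 CPM in high Cort, and 119 and 123 CPM in ADX, with differences of -0.13 ± 0.05 against sham (edgeR adjusted p = 0.335) and -0.16 ± 0.05 against ADX (edgeR adjusted p = 0.0611). The second was called in 4 of 14 alternatives, at adjusted p from 0.0199 to 0.0471. Lpar1 read 94.8 and 88.0 CPM in sham and 63.2 and 83.6 CPM in high Cort, a difference of -0.31 ± 0.13 (edgeR adjusted p = 0.566). It was -0.14 without high Cort replicate 1 and -0.54 without high Cort replicate 2, where it was called (edgeR adjusted p = 0.0316). Tf, matched by synonym, read 682 and 559 CPM in sham and 511 and 578 CPM in high Cort, and was called in no comparison.

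**Figure D4:**
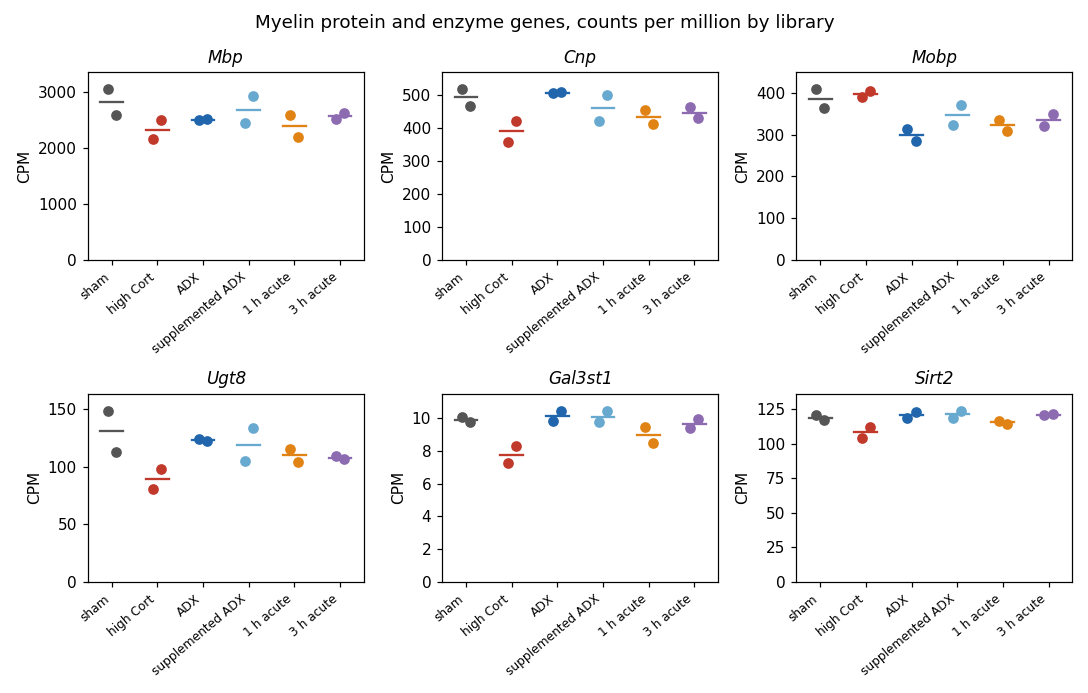
Level in CPM (vertical axis, from 0) of 6 myelin genes by group, with a point per library and a line at the mean of 2. Ugt8, Gal3st1 and Sirt2 have their lowest pair in high Cort, while Mobp in high Cort (389.7 and 405 CPM) lies above ADX (312 and 286 CPM).

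Mog, Mag, Cldn11, Ermn, Mal, Gjb1, Tspan2, Fa2h, Aspa, Car2 and Qdpr were not called in any comparison. Car2, a carbonic anhydrase, read 132 and 117 CPM in sham and 89.96 and 104 CPM in high Cort, a difference of -0.35 ± 0.14 (edgeR adjusted p = 0.52). Mal, a proteolipid, was with Mobp the exception in sign among the 19, and both turned negative without sham replicate 2. Its difference was 0.03 ± 0.16 against sham (edgeR adjusted p = 0.991).

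At an unadjusted p under 0.05, 10 of the 32 members were lower in high Cort than in sham and none was higher, while 4.32% of all genes were lower at that level. The 10 became 5 when sham replicate 1 was left out and 4 when high Cort replicate 1 was. Against ADX, 8 members were lower, beside 8.54% of all genes, and 3 (Olig1, Bcas1 and Mobp) were higher, beside 12.4%. These 11 became 5 with the thalamus score in the fit, 6 without ADX replicate 1 and 7 without high Cort replicate 1. Both high Cort libraries lay below the other 10 for 6 members (Nkx2-2, Gpr17, Enpp6, Ugt8, Gal3st1 and Sirt2), beside 5.08% of all genes. These shares describe the list and carry no test. The member counts under the alternatives above have no matching share of all genes, so their drops are not results about the members. Nkx2-2 was among the 6 by a near tie, at 8.1527 CPM in high Cort replicate 2 and 8.1599 CPM in sham replicate 2. Across the list 26 of 32 log2 differences were negative in high Cort against sham, with a median of -0.14. This lean was not particular to high Cort. Against the same sham libraries 27 of 32 were negative in ADX (median -0.08), 28 in 1 h acute (-0.14) and 27 in 3 h acute (-0.15). Without sham replicate 1 these counts were 16, 25 and 21. Markers of other cell types also leaned this way in high Cort against sham. Of 10 microglia markers 9 were negative (median -0.13), and their summed level was 293 and 323 CPM for high Cort beside 337 and 349 CPM for sham. Of 9 endothelial markers 8 were negative (median -0.21), with sums of 570.02 and 558 CPM beside 610.3 and 588 CPM. None of either list was called, and 4 of 13 neuron and 3 of 11 astrocyte markers were negative. The part of these cell types in the members' values was not tested.

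Single libraries weighed on this pattern. High Cort replicate 1 was the lowest of the 12 libraries for 16 of the 32 members, against 11.3% of all genes. Sham replicate 1 was the highest for 19 of 32, against 6.14% of all genes. Without sham replicate 1 the median was -0.07 and 25 of 32 differences were negative, and without high Cort replicate 1 it was -0.09 with 24 negative. The members varied over the 12 libraries with a median coefficient of variation of 10.1%, where all tested genes had 7.32%.

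**Figure D5:**
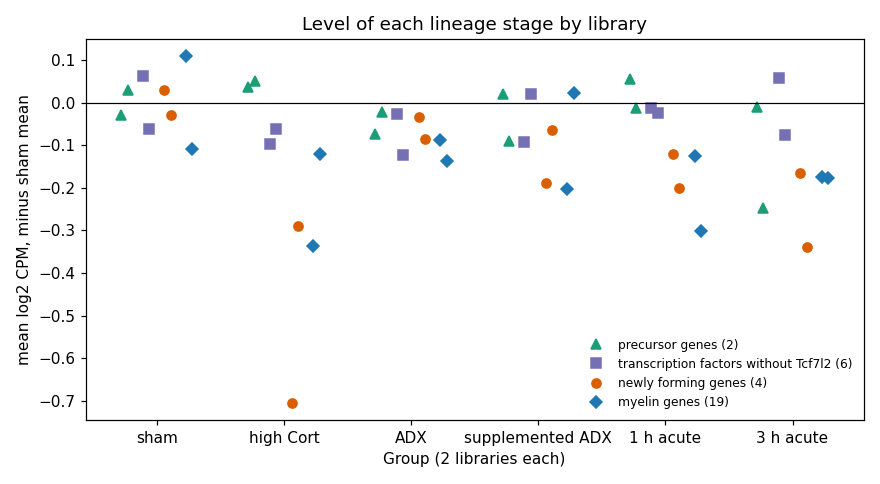
Mean log2 CPM of each stage minus its sham mean (vertical axis) in the 2 libraries of each group (horizontal axis). For the newly forming genes the mean log2 CPM was 3.83 and 4.24 in high Cort against 4.56 and 4.50 in sham. High Cort replicate 1 was the lowest library, and 3 h acute replicate 2 (4.19) lay between the high Cort libraries. The precursor genes in high Cort (6.81 and 6.83) lie just above sham (6.75 and 6.80).

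Further genes of the same pathway were read from 4 lists. Against sham, under high Cort, none of 15 further precursor genes, 15 newly forming genes or 39 myelin genes was called. Of 35 growth factor, receptor, Notch and Bmp genes, 1 rose and 1 fell, beside 0.871% of all genes called in this comparison. Cxcl12, a chemokine that guides precursor migration, rose by 0.31 ± 0.05 on the log2 scale (edgeR adjusted p = 0.00968). Id2, an inhibitor of the helix-loop-helix factors to which the Olig proteins belong, fell by 0.38 ± 0.08 (edgeR adjusted p = 0.0246).

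With ADX as the reference for high Cort, where 5.77% of all genes were called, 1 of 15 further precursor genes fell, which was Ptprz1, a receptor phosphatase (log2 difference -0.25 ± 0.05, edgeR adjusted p = 0.00566). Of the newly forming genes 1 rose (Tmem163) and 1 fell (Casr, -0.61 ± 0.14, edgeR adjusted p = 0.0226). Of 39 further myelin genes 3 rose and 1 fell. Hapln2, a link protein of the node of Ranvier, rose by 0.71 ± 0.11 (edgeR adjusted p = 0.00304), from a mean of 16.5 CPM in ADX to 27.1 CPM in high Cort. Bin1 and Il33 also rose, and the protease Adamts4 fell by 0.41 ± 0.11 (edgeR adjusted p = 0.0497). In the fourth list 3 rose and 1 fell. Cxcl12 rose by 0.50 ± 0.05 (edgeR adjusted p = 7.71e-05), Igf1r, the receptor for insulin-like growth factor, rose by 0.39 ± 0.07 (edgeR adjusted p = 0.00668), and Lingo1 rose by 0.32 ± 0.07 (edgeR adjusted p = 0.0207). Jag1, a Notch ligand, fell by 0.39 ± 0.08 (edgeR adjusted p = 0.0121). The thalamus markers moved in this comparison too, with 11 of 12 positive and none called. Markers of other cell types were called in both directions. Among those lower were Cdh5 and Tie1 of endothelium, Notch3 of pericytes and smooth muscle, Gfap and Aqp4 of astrocytes, and Sim1 and Otp of the PVH. Among those higher were Aldoc, Gjb6 and Aldh1l1 of astrocytes and Snap25 and Nefl of neurons. The part of the thalamus and of these cell types in the values above was not tested.

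In 1 h acute against sham, where 12.8% of all genes were called, 1 of 15 further precursor genes rose and 3 fell, 1 of 15 newly forming genes rose and 3 fell, 1 of 39 myelin genes rose and 3 fell, and of 35 genes in the fourth list 3 rose and 3 fell. Tmem163 fell by 0.71 ± 0.08 (edgeR adjusted p = 0.000447) and Lingo1 by 0.42 ± 0.07 (edgeR adjusted p = 0.00541). In 3 h acute against sham, where 7.98% of all genes were called, no further precursor gene was called, 3 newly forming genes fell, 1 myelin gene rose and 1 fell, and in the fourth list 3 rose and 3 fell. There Tmem163 fell by 0.41 ± 0.08 (edgeR adjusted p = 0.0101). Both comparisons cross the inferred processing runs, and all 12 thalamus markers had a negative difference in each.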

How the data were processed

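RNA of 12 libraries in 6 groups of 2 was read from the deposited gene tables. Per the submitters' processing notes, the authors used CASAVA 1.8.2, TopHat2 2.1.1 and Cufflinks 2.2.1 with build rn6; the annotation is not given in the sources used here. The authors deposited expected counts (raw fragments per gene), scaled fragments as a signal, and FPKM. The deposited expected counts were rounded to whole numbers (0.751% of values were not whole, none in a member). The deposited FPKM values served only in alternatives, as log2 values with a pseudocount of 1 or 0.1. Each of those limma fits held only the libraries of a single inferred processing run. The deposited scaled fragments (signal) were not tested.

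Counts were analysed with edgeR 4.0.16 in R 4.3.3 (TMM scaling, filterByExpr with a minimum count of 10 and total of 15, robust quasi-likelihood fit of all 12 libraries, 2-sided). The SE is the absolute log2 fold change divided by the square root of the F statistic. Alternatives used DESeq2 1.42.0 and limma 3.58.1. Another added the thalamus score as a covariate. That score did not overlap between high Cort and ADX, between sham and ADX, or between either acute group and sham or supplemented ADX. In these comparisons it cannot be told apart from the treatment. An exact permutation test of 2 against 2 cannot go below p = 0.333 and was not used. The procedure was tested on simulated data with a single spread for all genes and planted changes larger than the differences of most members. That simulation held no shifts of whole libraries, so it does not show how differences of the members' size are handled. Replicates of every group differed beyond sampling noise, with a chi-square per degree of freedom of 3.04 to 8.08.

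The members and the further lists were chosen with earlier results of these data known. Named in full are the members called in any comparison and, per stage, the member of smallest p in high Cort against sham and against ADX; of the further lists, up to 4 called genes per comparison. Other members named with values (Pdgfra, Gpr17, Bmp4, Mbp, Cnp, Ugt8, Sirt2, Car2 and Mal) were chosen after their values were seen.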

Additional observations from a re-analysis of the deposited data

How the results depend on the processing

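None of the called members turned sign in any alternative, nor did the other members of smallest p per stage in high Cort against sham and against ADX. Members near 0 did: 24 to 29 of 32 were negative in high Cort against sham. Leaving out supplemented ADX replicate 2 turned the members' median from -0.09 to 0.02 in 1 h acute and from -0.07 to 0.01 in 3 h acute, each against supplemented ADX. Without supplemented ADX replicate 2 the median against ADX went from 0.01 to -0.05, and in 3 h against 1 h acute it went from 0.02 to -0.06 without 1 h acute replicate 2 and to -0.02 without 3 h acute replicate 1. The count of called members in supplemented ADX against ADX and in 3 h acute against 1 h acute was 0 in every alternative run. In high Cort against sham (1 called) it was 3 with DESeq2, 0 in the fit of the 4 samples compared, 0 with limma on log2(FPKM + 1), on log2(FPKM + 0.1) and without a filter, and 0 to 3 when single libraries were left out. In ADX against sham (0) it was 2 with DESeq2 and 1 in the 4-sample fit. In high Cort against ADX (3) it was 5 with a stricter filter, 1 with the thalamus score as a covariate, 9 in the 4-sample fit, 0 with FPKM without a filter, and 1 to 7 when single libraries were left out. In 1 h acute against supplemented ADX (0) leaving out libraries gave 0 to 2, and in 3 h acute against supplemented ADX (0) the 4-sample fit gave 1. In 1 h acute against sham (2) it was 0 without a filter, 6 with DESeq2, 0 with the thalamus score, 0 in the 4-sample fit and 0 to 6 when libraries were left out. In 3 h acute against sham (0) it was 2 with DESeq2, 5 in the 4-sample fit and 0 to 1 when libraries were left out. The cause of these moves was not tested. The counts of all genes called moved as well, over the ranges given below. Those ranges are not matched to single settings, so these member counts have no background share. With the replicate number as a block, the count of members called was 1 in high Cort against sham, 2 in high Cort against ADX and 0 in 1 h acute against sham. Same-numbered libraries deviated together, at a correlation above 0.1, in 2 of 15 pairs of groups (range -0.38 to 0.148), so the numbers were not used as pairs. Enpp6 kept its call in 8 of 14 alternatives against sham and in 13 of 14 against ADX. Counts of all genes called ranged from 4 to 162 in high Cort against sham, 2 to 148 in ADX against sham, 157 to 1653 in high Cort against ADX, 0 to 33 in supplemented ADX against ADX, 1 to 624 and 0 to 154 for 1 h and 3 h acute against supplemented ADX, 0 to 35 in 3 h against 1 h acute, and 3 to 2125 and 4 to 1011 for 1 h and 3 h acute against sham. With 2 libraries per group, and as few as 92 fragments for Enpp6 in a high Cort library, the differences of most members could not be separated from the spread between libraries.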
